A study of Homo sapiens with 10 samples.

Results

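Tight junction and desmosome genes were examined in the chromatin of MDAMB231 cells, a triple negative breast cancer line of the claudin-low type. The group was chosen by gene symbol from the protein-coding genes of the GENCODE annotation lifted to GRCh37, and took in the numbered claudins, occludin (OCLN), the MARVEL proteins MARVELD1, MARVELD2 and MARVELD3, F11R, scaffolds such as TJP1, TJP3 and CGN, the desmocollins, the desmogleins, the plakophilins, DSP, JUP and PPL. It held 47 of 20176 protein-coding genes, of which 33 were grouped by symbol as tight junction genes and 14 as desmosome genes. The study profiled untreated MDAMB231 cells, grown in DMEM with 5% FBS, by FAIRE-seq and by ChIP-seq against H3K4me1, H3K4me3 and H3K27Ac, with 2 samples per assay, an input for each method and a 1% formaldehyde crosslink for FAIRE. Each of the 4 lists used here comes from data that the authors pooled over the samples of an assay, after treating each sample alone. None of the values below therefore has a replicate error. The lists held 18019 H3K4me3, 37495 H3K27Ac, 26771 H3K4me1 and 46552 FAIRE peaks. Read depth is not recorded in the lists, and a gene without a peak is a gene with no called peak at an unknown depth.

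Tight junctions seal the space between neighbouring epithelial cells. Claudins form the strands and set which ions pass, and occludin and some of its MARVEL relatives join them. TJP proteins and cingulin tie the strands to the actin cytoskeleton. Desmosomes hold cells together mechanically, with desmocollins and desmogleins crossing the membrane and plakoglobin, plakophilins and desmoplakin linking them to intermediate filaments. Tumours and lines of the claudin-low type are known for low levels of such genes and for mesenchymal features, and repressors of the ZEB and SNAI families are known to bind E-box sequences at promoters of epithelial genes. H3K4me3 marks promoters, H3K27Ac marks active promoters and enhancers, H3K4me1 is broad around enhancers, and FAIRE recovers nucleosome-depleted DNA.

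A gene was counted as carrying a mark when a peak of that list shared at least 1 base with any of its annotated start sites widened by 1 kb. Histone peaks were valued by the MACS score, minus 10 times the log10 of the p-value of a peak against input, and FAIRE peaks by the height of their coverage. Of all H3K4me3 peaks, 56.8% lay at a score of 3100 or slightly above, against 10.5% of H3K27Ac peaks, so a score of 3100 does not rank H3K4me3 peaks among themselves. Scores follow peak width and depth as well as enrichment and were compared only within a list.

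The markers fixed for the cell type were looked at first. Of 7 mesenchymal or claudin-low markers, among them VIM, AXL, CAV1 and CD44, 7 had a promoter H3K27Ac peak, 7 a promoter FAIRE peak and 6 a promoter H3K4me3 peak; SPARC was the exception, with an H3K27Ac score of 382 and no H3K4me3. Of 4 basal markers, KRT5, KRT14 and KRT17 had no promoter peak in any list, and TP63 had an H3K4me3 score of 203 and an H3K27Ac score of 315. Among 10 luminal and receptor markers, 9 had promoter H3K4me3 and 7 (70%) had promoter H3K27Ac, where 67.1% and 63.2% of all coding genes had them. The estrogen receptor gene ESR1, the progesterone receptor gene PGR and FOXA1 had H3K4me3 with no promoter H3K27Ac. The keratin genes KRT8, KRT18 and KRT19 and the adhesion gene EPCAM had both marks. So did the receptor gene ERBB2, with H3K27Ac at 1299, and GATA3, with H3K27Ac at 383. CDH1, which encodes E-cadherin, had no promoter H3K4me3 peak; its canonical start lay 90.6 kb from the nearest one, and its promoter H3K27Ac peak, of score 538, lay at another start, no closer than 28.3 kb to the canonical one. H3K27Ac was thus found at every mesenchymal marker promoter, at 7 of 10 luminal and receptor markers and at none of the basal keratins.

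The junction genes carried fewer promoter marks than coding genes as a whole in 3 of the 4 lists. A promoter H3K4me3 peak was found for 25 of the 47 genes (53.2%), against 67.1% of all protein-coding genes. Promoter H3K27Ac was found for 19 genes (40.4%), against 63.2%, and promoter FAIRE for 10 genes (21.3%), against 39.2%. Promoter H3K4me1 was found for 10 genes (21.3%), close to the 20% of all genes. The last 2 counts depended on the bounds: FAIRE was found for 16 genes (34%) with starts widened by 2 kb, against 42.8% of all genes, and for 6 (12.8%) at the canonical start, against 31.3%. H3K4me1 was found for 4 genes (8.51%) at the most upstream start, against 11.8%. Peaks that also lie at the promoter of another coding gene were then left out, a choice made after seeing the data. The gaps narrowed for H3K4me3, to 42.6% against 48.7%, and for H3K27Ac, to 34% against 46%. They also narrowed for FAIRE, to 19.1% against 28.8%, and for no peak in any list, to 51.1% against 45.8%. For H3K4me1 the gap widened, to 21.3% against 16%. No promoter peak of any list was found for 20 genes (42.6%), against 29.6%, and peaks of all 4 lists stood at the promoters of 3 genes (6.38%), among them CLDN12 and OCLN, against 13% of all genes. At the canonical start alone, 22 genes (46.8%) had H3K4me3, against 64.1%, and 17 genes (36.2%) had H3K27Ac, against 59.2%. The bars of promoter peaks by role group show that these shares were uneven inside the group.

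**Figure D1:**
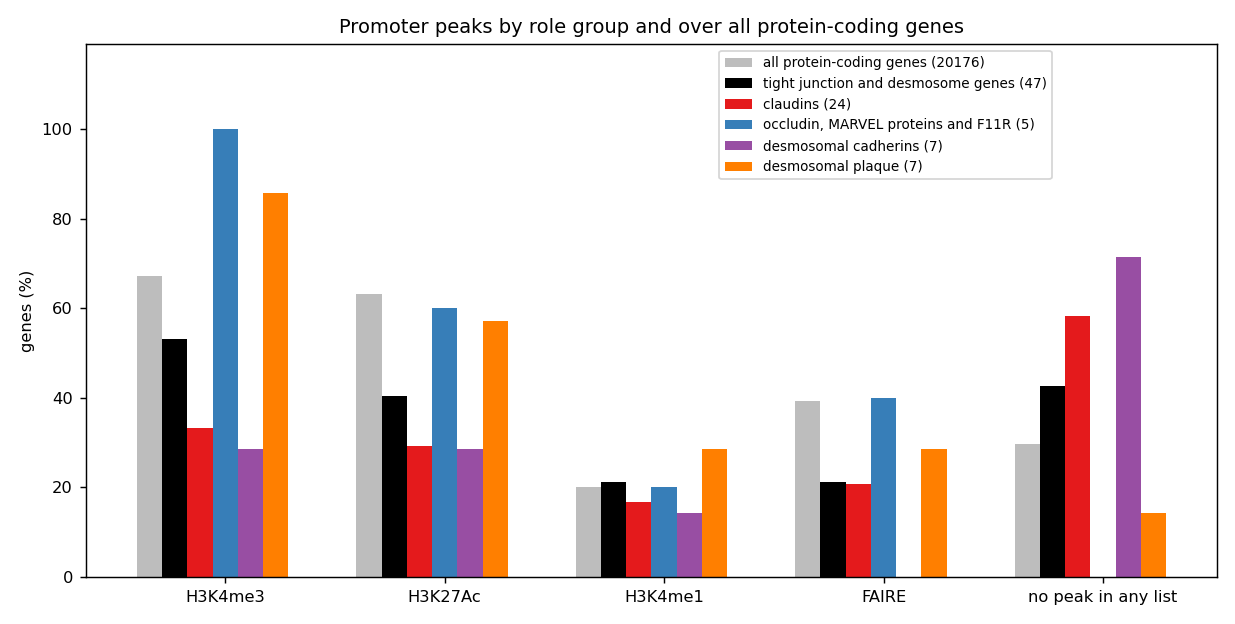
Share of genes (%, vertical axis) with a promoter peak in each list, and with none in any list, for all 20176 protein-coding genes (grey), the 47 junction genes (black) and role groups (colours, number of genes in brackets). Claudins and desmosomal cadherins stood below all genes for H3K4me3 and H3K27Ac, while H3K4me3 was found for 5 of 5 genes of the occludin group.

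H3K4me3 came without H3K27Ac more often than over the genome. Among the 25 genes with promoter H3K4me3, 7 (28%) had no promoter H3K27Ac peak, against 8.98% of all coding genes with H3K4me3. They were CLDN1, CLDN3, MARVELD2, MARVELD3, TJP3, JUP and PPL, which come from 4 of the 5 role groups. The reverse, H3K27Ac without H3K4me3, was found for 1 gene, CLDN2, against 2.19% of all genes. Open chromatin was also scarce over the marked promoters: 17 of the 25 genes with H3K4me3 (68%) had no promoter FAIRE peak, against 44.5%. Where promoter H3K27Ac was present, the median of the highest scores was 2501.5 over 19 genes, against 1357.4 over all genes with such a peak, and the median width was 4440 bp, against 3251 bp. The groups differed in this: the median score was 3100 over 7 claudins, 1628.2 over 4 desmosomal plaque genes and 646.3 over 2 desmosomal cadherins. The cadherin median was below that of all genes. Among the claudins, the highest H3K27Ac peaks of CLDN2 and CLDN6 lay more than 1 kb from the canonical start. The CLDN6 peak also covers promoters of other genes, and the CLDN2 peak nearest its canonical start scored 1360.4.

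Base composition separated most marked from unmarked promoters. Within 500 bp of the canonical start, 25 of the 47 genes were CpG-rich (53.2%), taken as an observed over expected CpG ratio of at least 0.6 with GC of at least 50%, against 64.3% of 20152 coding genes with sequence. Among CpG-poor junction genes 16 of 22 (72.7%) had no promoter peak of any list, near the 63.4% of all CpG-poor genes. Among CpG-rich junction genes 4 of 25 (16%) had none, near the 10.7% of all CpG-rich genes; these were CLDN5, CLDN11, DSC3 and PKP1. H3K4me3 stood over the canonical start of 19 of the 25 CpG-rich genes (76%), against 87.4%. For H3K27Ac the gap was wider, 12 of 25 (48%) against 80%, and 7 of the 19 CpG-rich genes with H3K4me3 (36.8%) lacked H3K27Ac there, against 8.66%. The count of genes with no promoter peak therefore lay near that of genes of like base composition, and the count with H3K27Ac over CpG-rich starts lay below it.

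**Figure D2:**
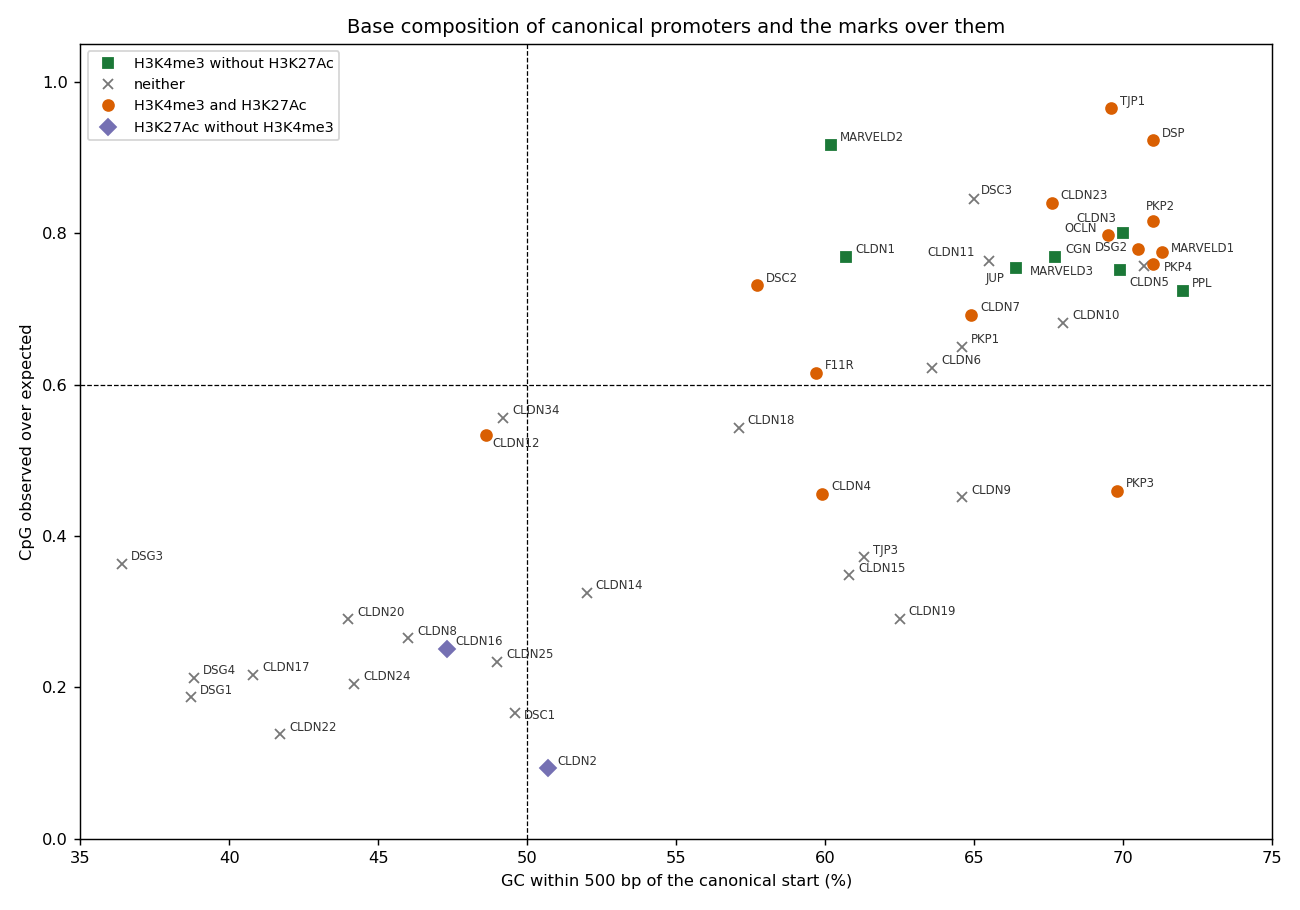
Genes of the group by GC share (%, horizontal axis) and CpG observed over expected ratio (vertical axis) within 500 bp of the canonical start, with symbols for the H3K4me3 and H3K27Ac peaks over that start. Dashed lines mark a ratio of 0.6 and GC of 50%; the 7 green squares, with H3K4me3 and no H3K27Ac, lie in the CpG-rich corner and, counted at the canonical start, include CGN and not TJP3, and both diamonds, CLDN2 and CLDN16, lie among the CpG-poor promoters.

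Promoter sequences were searched on both strands for an E-box of the kind bound by ZEB and SNAI repressors (CACCTG, which reads CAGGTG on the other strand), for a Grainyhead-like site (AACCGGTT) and for an AP-1 site (TGANTCA), from 250 bp before to 50 bp after the canonical start. The E-box was found in 19 of 47 promoters (40.4%), against 20.4% of 20152 coding promoters, and 8 promoters (17%) held 2 or more, against 3.37%. Its share was 44% in CpG-rich and 36.4% in CpG-poor junction promoters, against 18.2% and 24.5% over all genes. It was found in 11 of 22 promoters with H3K4me3 at the canonical start (50%) and in 8 of 25 without (32%), against 18% and 24.8% over all genes. CLDN7 held 5 matches, a number reached or passed by 12 coding promoters in all, and F11R and MARVELD3 held 3 each. The Grainyhead-like letters were found in 0 promoters of the group and 0.154% of all, and the AP-1 letters in CLDN4, with 2 matches, and CLDN15, with 1, which is 4.26% of the group and 5.42% of all. No E-box match of the group overlapped a match of the other motifs. A match is a run of letters and was not tested for binding.

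The 250 bp before the canonical start are shown for OCLN (chr5:68788367-68788616, plus strand), which had promoter peaks in all 4 lists, and, for contrast, for some of the genes with no promoter peak that held an E-box before the start: CLDN19 (chr1:43205908-43206157, minus strand), CLDN25 (chr11:113650268-113650517, plus strand) and DSG1 (chr18:28897873-28898122, plus strand). CLDN7 (chr17:7165798-7166047, minus strand) was added after its matches were seen. Sequences are from the GRCh37 genome, run 5′ to 3′ towards the start on the strand of the gene, and have E-box matches in capitals.
OCLN: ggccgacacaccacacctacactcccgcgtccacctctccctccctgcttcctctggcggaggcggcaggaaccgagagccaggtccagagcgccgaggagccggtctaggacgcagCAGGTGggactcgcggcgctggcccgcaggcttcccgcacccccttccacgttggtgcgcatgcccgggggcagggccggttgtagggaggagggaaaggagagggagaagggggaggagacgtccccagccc
CLDN7: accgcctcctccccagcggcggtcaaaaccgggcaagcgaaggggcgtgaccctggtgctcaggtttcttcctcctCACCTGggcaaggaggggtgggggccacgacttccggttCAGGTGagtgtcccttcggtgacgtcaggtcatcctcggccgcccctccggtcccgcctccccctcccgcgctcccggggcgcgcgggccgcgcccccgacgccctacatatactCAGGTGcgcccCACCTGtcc
CLDN19: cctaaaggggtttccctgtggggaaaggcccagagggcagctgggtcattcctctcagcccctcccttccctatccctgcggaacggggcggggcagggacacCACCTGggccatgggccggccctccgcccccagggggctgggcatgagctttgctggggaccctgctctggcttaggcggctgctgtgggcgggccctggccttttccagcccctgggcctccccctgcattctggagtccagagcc
CLDN25: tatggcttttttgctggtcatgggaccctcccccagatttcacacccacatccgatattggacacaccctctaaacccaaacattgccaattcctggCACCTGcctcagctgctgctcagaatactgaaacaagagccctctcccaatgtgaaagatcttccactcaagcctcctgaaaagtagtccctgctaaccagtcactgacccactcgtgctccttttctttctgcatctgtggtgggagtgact
DSG1: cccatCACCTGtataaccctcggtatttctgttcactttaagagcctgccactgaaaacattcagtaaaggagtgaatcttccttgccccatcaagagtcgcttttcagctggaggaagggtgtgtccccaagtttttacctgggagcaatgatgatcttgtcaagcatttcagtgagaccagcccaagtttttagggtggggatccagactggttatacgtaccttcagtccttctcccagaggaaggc
The OCLN match began 133 bp before the start, and a further match in that promoter lay after the start. The CLDN7 matches shown began 174, 135, 20 and 9 bp before the start. The single matches of CLDN19, CLDN25 and DSG1 began 147, 153 and 245 bp before it. These promoters were picked as examples; over all 20 genes with no promoter peak, 6 (30%) held an E-box, against 24.9% of all genes with no promoter peak.

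The claudins were the least marked of the tight junction genes. Of 24 claudin genes, 8 (33.3%) had promoter H3K4me3, against 67.1% of all coding genes, and 7 (29.2%) promoter H3K27Ac, against 63.2%. Promoter H3K4me1 was found for 4 (16.7%), against 20%, and promoter FAIRE for 5 (20.8%), against 39.2%. The other 14 (58.3%) had no promoter peak of any list, against 29.6%. Only 8 of the 24 were CpG-rich, and 2 of these (25%) were without promoter peaks, against 10.7% of all CpG-rich genes. Of the 16 CpG-poor claudins, 12 (75%) had no promoter peak, against 63.4% of all CpG-poor genes. The plot of the highest promoter peak of each gene shows where the marked claudins stood.

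**Figure D3:**
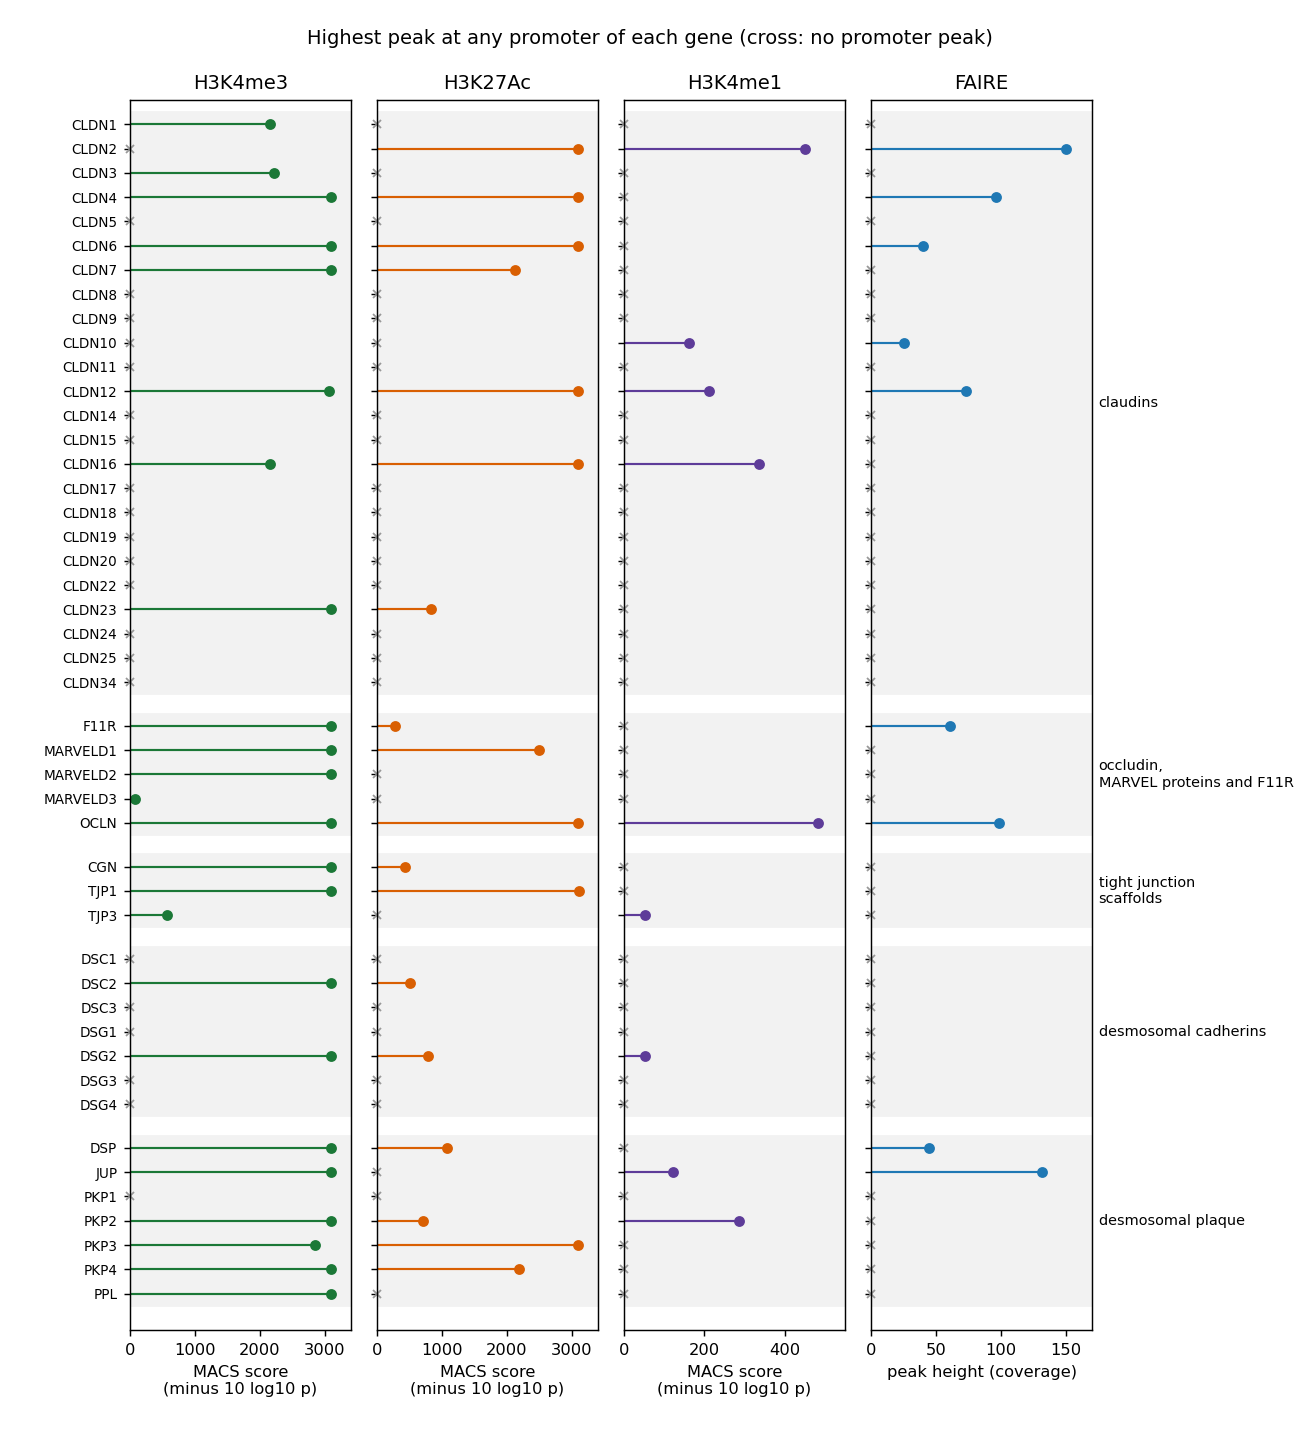
Highest peak at any promoter of genes of the group, by role group (rows), in the H3K4me3, H3K27Ac and H3K4me1 lists (MACS score, minus 10 log10 p) and the FAIRE list (peak height in coverage); crosses mark genes with no promoter peak in that list. Marked claudins are few and scattered, no desmosomal cadherin has a FAIRE dot, and H3K4me3 dots with a cross in the H3K27Ac panel are seen in every group except the desmosomal cadherins.

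CLDN3, CLDN4 and CLDN7, claudins of most simple epithelia whose low levels gave the claudin-low type its name, differed from each other. CLDN4, a receptor for a clostridial enterotoxin like CLDN3, had an H3K4me3 peak of score 3100 over its canonical start (chr7:73244546-73248260) and an H3K27Ac peak of score 3100 that was 7684 bp wide. It had FAIRE peaks of height 95.7 and 61.8, the second over the canonical start, and no promoter H3K4me1. CLDN7 had H3K4me3 at a score of 3100 (chr17:7163596-7168598) and H3K27Ac at 2129 over 7009 bp, with neither H3K4me1 nor FAIRE; another coding gene model shares this promoter. CLDN3 had H3K4me3 at a score of 2218 (chr7:73183624-73185656) and no other promoter peak. The H3K27Ac peak nearest its start was 30.1 kb away, although CLDN3 and CLDN4 lie side by side with canonical starts 60.7 kb apart. Of these 3 claudins, CLDN4 and CLDN7 thus carried both promoter marks and CLDN3 carried H3K4me3 alone; transcript levels were not analysed here.

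CLDN1, which is needed for the barrier of the skin, and CLDN16, which takes part in magnesium reabsorption in the kidney, lie in a block of 106.4 kb and share a promoter peak. The H3K4me3 peak at the CLDN1 start (chr3:190039138-190041171, score 2159) also touches an upstream start of CLDN16. CLDN1 had no promoter H3K27Ac, and its nearest H3K27Ac peak was 16 kb away. The canonical start of CLDN16, 64.8 kb from that H3K4me3 peak, lay in an H3K27Ac peak of score 3100 and 4440 bp, beside an H3K4me1 peak of score 336. A start with H3K27Ac and H3K4me1 but no H3K4me3 is the pattern usual for an enhancer. CLDN2, which forms a pore for cations and water, showed the same pattern at separate starts. Its canonical start lay in an H3K4me1 peak of score 452, with an H3K27Ac peak of score 1360.4 at 0.918 kb and a FAIRE peak of height 150 at 2.03 kb (chrX:106160858-106161604). Its upstream start, reached by peaks that end 19.4 to 20.6 kb from the canonical one, had H3K27Ac at 3103 over 6589 bp, H3K4me1 at 445 and FAIRE at 35.3. That FAIRE height of 150 was above 98% of the list, and the nearest H3K4me3 peak was 77.9 kb from the canonical start.

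CLDN12, a claudin without the usual carboxy-terminal scaffold-binding end, was the only claudin with promoter peaks in all 4 lists. Its canonical start had H3K4me3 at a score of 3063 (chr7:90031922-90034610), H3K27Ac at 3100 and FAIRE at a height of 72.9, with H3K4me1 at 184 beginning 0.769 kb away. An upstream start had H3K27Ac at 3100, H3K4me1 at 212 and FAIRE at 37.8 with no H3K4me3. A downstream start had weaker H3K4me3, at 200.25 in a peak that began 59.3 kb away, and H3K27Ac at 161. CLDN23 had H3K4me3 at 3100 and H3K27Ac at 826, and neither of the other marks. The peaks assigned to CLDN6, an embryonic claudin, reached no closer than 1.01 kb to its canonical start. They had H3K4me3 and H3K27Ac scores of 3100, with a FAIRE peak of height 39.977, and cover the promoters of TNFRSF12A, THOC6 and HCFC1R1 (chr16:3069264-3075224). CLDN10, which forms ion pores in kidney and glands, had H3K4me1 at 162 and FAIRE at 25.1 at an inner start and no other promoter peak. When peaks at the promoter of another coding gene were left out, 4 claudins (16.7%) had promoter H3K4me3 in place of 8. The share of all genes fell from 67.1% to 48.7%. This step removed CLDN6 and CLDN7, and also CLDN1 and CLDN16, which share a peak with each other. The CLDN1 and CLDN7 peaks lay over their own canonical starts.

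No promoter peak was found for CLDN5, CLDN8, CLDN9, CLDN11, CLDN14, CLDN15, CLDN17, CLDN18, CLDN19, CLDN20, CLDN22, CLDN24, CLDN25 and CLDN34. Several of these are known from other tissues, such as CLDN5 in endothelium, CLDN11 in myelin and testis, CLDN18 in stomach and lung, and CLDN8, CLDN17 and CLDN19 in kidney. CLDN8 and CLDN17, neighbours on chromosome 21, stood in the emptiest stretch, with no peak of any list within 50 kb of either gene. For CLDN8 the nearest peak of any list was a FAIRE peak 366 kb from the start, and for CLDN17 a FAIRE peak at 317 kb. They were the only genes of the group without a peak in gene bounds widened by 50 kb, 2 of 47, against 7.93% of all genes, while with 20 kb in place of 50 kb it was 7 genes (14.9%), against 13.1%. The direction of this comparison thus depended on the distance chosen. For CLDN14 the nearest peak was FAIRE at 23.9 kb, for CLDN18 H3K4me1 at 67.2 kb, for CLDN5 H3K4me3 at 43 kb and for CLDN19 H3K4me3 at 24.4 kb. For CLDN34 it was FAIRE at 26 kb, for CLDN15 H3K27Ac at 5.36 kb and for CLDN9 H3K27Ac at 6.28 kb. For CLDN25 a FAIRE peak ended 1.04 kb from the start, just outside the promoter bound. For CLDN11 an H3K4me1 peak lay at 3.44 kb, for CLDN20 an H3K27Ac peak at 6.67 kb, and for CLDN22 and CLDN24, whose starts are 2.15 kb apart, FAIRE at 6.39 and 4.25 kb. Unmarked claudins thus ranged from genes in peak-free DNA to genes a few kb from enhancer-like peaks.

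H3K4me3 stood at the promoters of 5 of 5 genes of the occludin group, against 67.1% of all genes. H3K27Ac stood at 3 (60%), near the 63.2% of all genes. OCLN, the founding membrane protein of the tight junction, had H3K4me3 at 3100 (chr5:68787465-68790647) and H3K27Ac at 917 over its canonical start. A start further into the gene lay in a second H3K27Ac peak of score 3100 and 9297 bp, and the H3K4me1 peak, of score 482 and 11563 bp, ran from 0.535 kb past the canonical start to beyond that H3K27Ac peak. The OCLN FAIRE peak, of height 98.2, was at an inner start and began 9.87 kb from the canonical one. MARVELD2, the tricellulin gene, is the neighbour of OCLN, with canonical starts 77.7 kb apart. It had H3K4me3 at 3100 and no other promoter peak, and its nearest H3K27Ac peak was 43.8 kb away. MARVELD3 had the weakest promoter H3K4me3 of the group, 71.1, a score above 4.57% of the list, and no other promoter peak. MARVELD1 had H3K4me3 at 3100 and H3K27Ac at 2502. F11R, which encodes the adhesion molecule JAM-A, had H3K4me3 at 3100, FAIRE at 60.3 and H3K27Ac at 270.05, the lowest among the junction genes when each is taken by its highest promoter H3K27Ac peak. The MARVEL genes thus ran from strong acetylation to a marginal H3K4me3 peak.

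Scaffold genes differed in where their marks stood. TJP1, which encodes ZO-1, had H3K4me3 at 3100 (chr15:30111862-30115955) and H3K27Ac at 3107 over its canonical start, and a further H3K4me3 peak of score 214 at another start, with its nearer edge 146 kb away. TJP3, the ZO-3 gene of epithelial cells, had no peak over its canonical start. Its H3K4me3 peak, of score 569, lay 12.6 kb from that start and its H3K4me1 peak, of score 50.9, at 18.7 kb. CGN, which encodes cingulin, had H3K4me3 at 3100 over the canonical start (chr1:151482638-151485416), while its promoter H3K27Ac, at 422, lay at another start and began 24.6 kb away. TJP1, which is found in many cell types, thus carried both marks over the canonical start, and TJP3 and CGN, which belong to epithelia, did not.

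The desmosomal cadherins lie together on chromosome 18, in a stretch of 559.6 kb with the desmocollin genes on 1 strand and the desmoglein genes on the other. Of the 7 genes, DSC2 and DSG2 (28.6%) had promoter H3K4me3, against 67.1% of all genes, and the same 2 had promoter H3K27Ac, against 63.2%. DSC1, DSC3, DSG1, DSG3 and DSG4 (71.4%) had no promoter peak of any list, against 29.6%. DSC2 and DSG2 are the pair of simple epithelia and heart, while DSC1, DSC3, DSG1 and DSG3 are known from stratified epithelia and DSG4 from hair. DSC2 had H3K4me3 at 3100 (chr18:28680062-28682916) and H3K27Ac at 502. DSG2 had H3K4me3 at 3100 (chr18:29077234-29079704), H3K27Ac at 791 and H3K4me1 at 50.8. No promoter FAIRE peak was found for any of the 7, where 39.2% of all genes had one. The whole stretch held 3 H3K4me3 peaks, and the peak outside both promoters scored 54.3, close to the lowest score in the list, 50.01. It also held 12 H3K27Ac, 10 H3K4me1 and 18 FAIRE peaks.

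**Figure D4:**
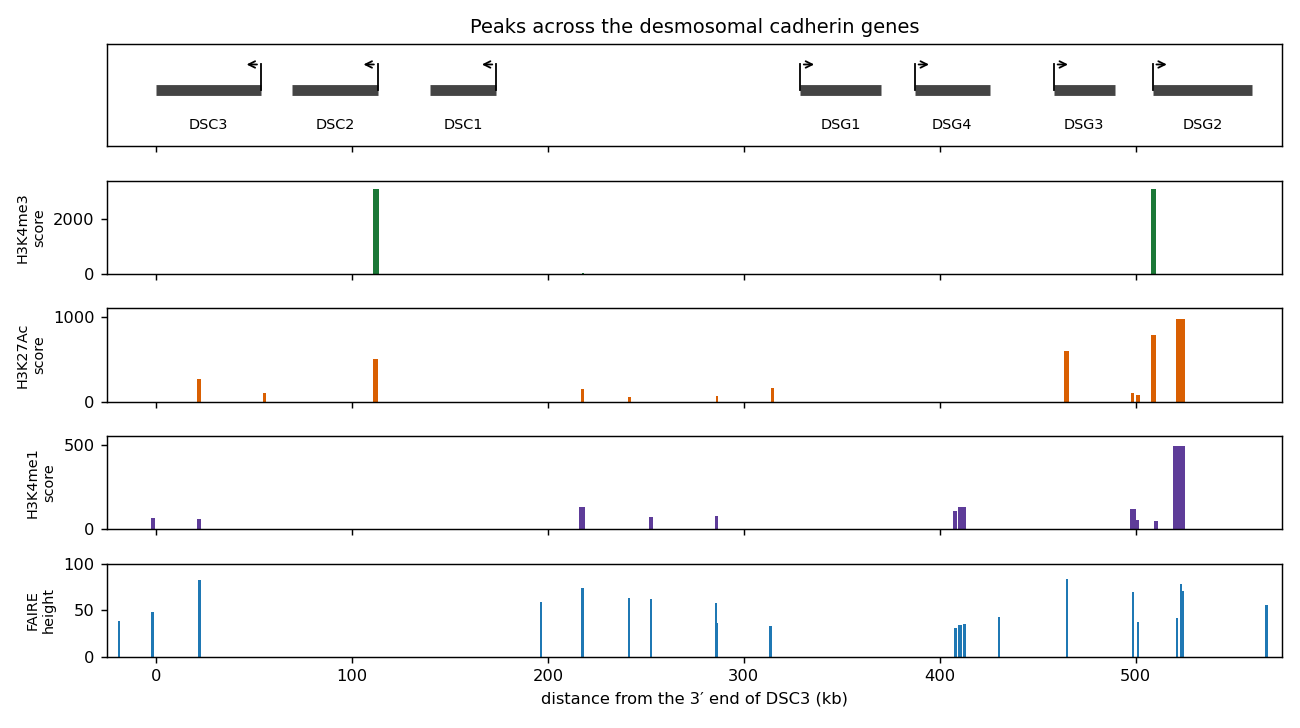
Map of the desmosomal cadherin genes (top, bars with arrows at canonical starts) and the peaks of each list by distance from the 3′ end of DSC3 (kb, horizontal axis), with bar heights giving MACS scores or FAIRE heights. Tall H3K4me3 bars stand at the DSC2 and DSG2 starts, both of score 3100, and the tallest H3K27Ac and H3K4me1 bars, 971 and 492, stand together inside DSG2.

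The tallest enhancer-like peak of the stretch lay inside DSG2, 13.4 kb from its start (chr18:29088334-29094744), with H3K4me1 at 492, H3K27Ac at 971 and FAIRE at 77.8. DSG3, the target of autoantibodies in pemphigus vulgaris, had an H3K27Ac peak of score 598 with a FAIRE peak of height 84 inside the gene, 5.25 and 6.24 kb from its start. DSC3, whose promoter is CpG-rich, had an H3K27Ac peak of score 100.5 that lay 1.24 kb from its start and so fell outside the promoter bound. It also had an open acetylated H3K4me1 peak inside the gene, with an H3K4me1 score of 62.1, an H3K27Ac score of 269.65 and a FAIRE height of 82.5. DSG1 had its nearest peak, H3K27Ac of score 159, at 13.5 kb. For DSG4 it was H3K4me1 at 19.5 kb and for DSC1 FAIRE at 22.4 kb. The promoters of the stratified-epithelium genes thus had no peak while acetylated or open DNA lay nearby in the same stretch.

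Of the 7 desmosomal plaque genes, 6 (85.7%) had promoter H3K4me3, against 67.1% of all genes, and 4 (57.1%) had promoter H3K27Ac, near the 63.2% of all genes. DSP, which encodes desmoplakin, had H3K4me3 at 3100 (chr6:7540344-7544019), H3K27Ac at 1072 and FAIRE at 44.7. PKP3 had H3K27Ac at 3100 and H3K4me3 at 2852, and PKP4 had H3K4me3 at 3100 and H3K27Ac at 2185 at a start it shares with CCDC148. PKP2, the plakophilin of heart and simple epithelia, had H3K4me3 at 3100, H3K27Ac at 700.4 and H3K4me1 at 286. JUP, which encodes plakoglobin, had H3K4me3 at 3100 (chr17:39940294-39943832) and, over the same start, the highest FAIRE peak of the plaque genes, 131, but no promoter H3K27Ac; the nearest was 4.68 kb away. Inner JUP starts had H3K4me1 at 122 and FAIRE at 49.7. PPL, which encodes periplakin, had H3K4me3 at 3100 and no other promoter peak. PKP1, a plakophilin of stratified epithelia, had no promoter peak, and its nearest peak was H3K27Ac at 6.05 kb. JUP and PPL thus had promoter H3K4me3 with H3K27Ac only outside the promoter, and the plakophilins ran from strong acetylation in PKP3 to none in PKP1.

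Peaks were also counted over gene bounds widened by 50 kb, promoter peaks of the gene and of its neighbours included. The median number per gene was 6 FAIRE, 4 H3K27Ac, 2 H3K4me1 and 2 H3K4me3 peaks, against 3, 3, 1 and 2 over all coding genes, with median windows of 131 and 127.2 kb. Per 100 kb of window the median was 3.62 FAIRE peaks, against 1.97, 2.86 H3K27Ac peaks, against 2.1, and 1.31 H3K4me3 peaks, against 1.39. An enhancer-like peak was taken as an H3K4me1 peak at no coding promoter that overlaps H3K27Ac and FAIRE peaks and no H3K4me3 peak; the genome held 12111. At least 1 lay within 50 kb of 26 of the 47 genes (55.3%), against 33.7% of all genes. They made up 57 separate peaks, since neighbouring genes share some. Of the 20 genes with no promoter peak, 18 (90%) had some peak within 50 kb and 9 (45%) had an enhancer-like peak, against 73.2% and 20.6% of the 5964 coding genes with no promoter peak. Which gene such a peak acts on was not tested.

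**Figure D5:**
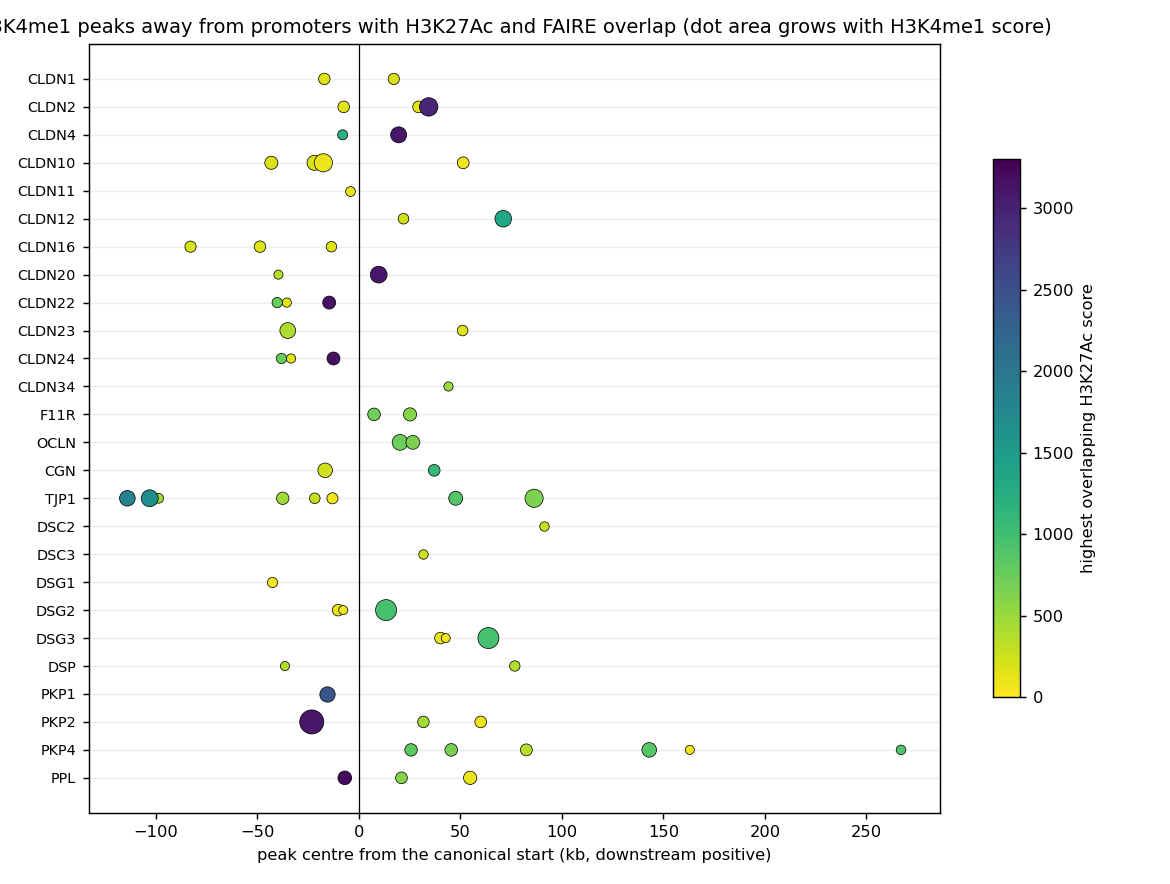
Enhancer-like peaks within 50 kb of the bounds of each gene, by distance of the peak centre from the canonical start (kb, downstream positive), with dot area growing with the H3K4me1 score and colour giving the highest overlapping H3K27Ac score. TJP1 has 8 and PKP4 has 6; dark dots, with H3K27Ac scores from 2957.68 to 3233.06, stand near CLDN2, CLDN4, CLDN20, CLDN22, CLDN24, PKP2 and PPL.

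TJP1 had 8 enhancer-like peaks within its bounds, the largest number in the group, with H3K27Ac scores from 68.2 to 1831. Its widened window was also the longest, 369.5 kb against a group median of 131 kb, and these numbers were not scaled by length. PKP4 had 6 and CLDN10 had 4, and at CLDN10 the acetylation was weak, from 72.8 to 185. PKP2 had the highest H3K4me1 score among the enhancer-like peaks of the group, 661, with H3K27Ac at 3100, in a peak 23.2 kb upstream of its start (chr12:33069214-33076539). PPL, whose promoter lacked H3K27Ac, had H3K4me1 over 10059 bp centred 6.93 kb upstream, with H3K27Ac at 3233 and FAIRE at 92.9 (chr16:4989050-4999108). CLDN4 had a peak 19.6 kb downstream with H3K4me1 at 266, H3K27Ac at 3100 and FAIRE at 159, although the nearest coding start to it is that of METTL27. Of the 7 genes with promoter H3K4me3 and no promoter H3K27Ac, PPL was the exception in having strongly acetylated enhancer-like DNA within 50 kb. CLDN3, MARVELD2, MARVELD3, TJP3 and JUP had no enhancer-like peak within 50 kb, and those around CLDN1 had H3K27Ac scores of 195 and 162. For CLDN3 this rested on the bound. An enhancer-like peak with H3K27Ac at 1207 and FAIRE at 132, counted for CLDN4, began 50.7 kb from the CLDN3 start.

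Some claudins and a plakophilin with no promoter peak had acetylated enhancer-like peaks within 50 kb. CLDN20 had an enhancer-like peak 9.77 kb from its start with H3K4me1 at 297 and H3K27Ac at 3100. CLDN22 and CLDN24 share a peak with H3K27Ac at 3152 and FAIRE at 101, 14.6 and 12.5 kb upstream of their starts. PKP1 had a peak 15.8 kb upstream with H3K4me1 at 239, H3K27Ac at 2412 and FAIRE at 107, for which PKP1 is the nearest coding start. CLDN11 had a weaker peak 4.29 kb upstream, with H3K4me1 at 70.9 and H3K27Ac at 131.

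Other genes of the same structures were marked more often than the claudins and cadherins. Of 26 other tight junction genes, fixed as a list and consisting mainly of polarity proteins, adaptors and adhesion proteins, 23 (88.5%) had promoter H3K4me3, 17 (65.4%) had promoter H3K27Ac and 12 (46.2%) had promoter FAIRE. Over all genes these shares were 67.1%, 63.2% and 39.2%, so the list stood above the genome for H3K4me3 and near it for H3K27Ac. H3K4me3 stood without H3K27Ac in 6 of the 23, CGNL1, PARD6B, PARD6G, ILDR1, AMOT and AMOTL2, against 8.98% over all genes, so this trait was shared with the 7 of 25 of the junction genes. The adhesion genes JAM2 and JAM3 and the polarity gene CRB3 had no promoter peak. Of 8 other desmosome and plakin genes, 7 had both H3K4me3 and H3K27Ac, among them DST, CTNND1 and CTNNB1, where 61% of all genes had both. CDSN, which encodes corneodesmosin of the outer skin, had no promoter peak. In these lists DST, CTNND1, the adaptor gene MAGI1 and YBX3, which encodes a Y-box transcription factor, had promoter peaks of all 4 kinds.

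Regulators known for junction genes were described from fixed lists as well. Of 12 epithelial regulators, 9 (75%) had promoter H3K4me3 and 7 (58.3%) had promoter H3K27Ac, near the 67.1% and 63.2% of all genes. OVOL1 and ELF3 had no promoter peak, GRHL2 had FAIRE at 68.9 without a histone peak, and OVOL2 and ESRP1 had H3K4me3 without H3K27Ac. GRHL1 had both marks with H3K27Ac at 142, while KLF5 and EHF had H3K27Ac at 3100. Of 5 repressors, ZEB1, ZEB2 and SNAI2 had both marks, with H3K27Ac at 3100, 1322 and 719, where 61% of all genes had both. SNAI1 had H3K4me3 at 1966 alone, and TWIST1 had no promoter peak. ZEB1 was the repressor with promoter peaks in all 4 lists. Whether any of these factors occupies the junction promoters was not tested.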

How the data were processed

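FAIRE-seq and ChIP-seq of MDAMB231 cells were analysed from 4 deposited peak lists on hg19, 1 per assay, each made by the authors from 2 combined samples. By the paper, the authors aligned reads with BWA; the submitters' processing notes name TopHat and HOMER. The authors removed duplicates and reads with mapping quality under 30 with Samtools. Histone peaks come from MACS with input as control and p of 1e-05; their deposited score is 10 times −log10 of p. FAIRE peaks were called with FindPeaks, and the deposited value is the height of the coverage signal. Peaks were counted at GENCODE 44 starts on GRCh37 with Python 3.11.15 and numpy 2.4.6. The overlap count was checked against bedtools 2.31.1 on simulated data, and 0 peaks ended beyond a GRCh37 chromosome. Values are given in full for genes with promoter H3K4me3, and genes with no promoter peak are named with their nearest peak. Counts are set beside those of all coding genes without a test. Members and lists were chosen with earlier results of these data known. Some items are not reported here.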

Additional observations from a re-analysis of the deposited data

How the results depend on the processing

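Counts were recomputed under 59 alternatives, of which 51 gave a count within 1.5 times that reported. Counts with promoter H3K4me3, with promoter H3K27Ac, of desmosome genes with H3K4me3 and of genes with no promoter peak moved by less than that under each alternative tried. Promoter H3K4me1, found for 10 genes, fell to 4 with the most upstream start only and to 4 when the centre of the peak had to lie in the promoter. Promoter FAIRE, found for 10 genes, was found for 16 with starts widened by 2 kb. It was found for 6 with the most upstream start only, for 6 when peaks below the median height were dropped, and for 6 at the canonical start only. Claudins with promoter H3K4me3 numbered 4 in place of 8 without peaks at the promoter of another coding gene, and the share of all genes with H3K4me3 fell from 67.1% to 48.7%. Genes with no peak nearby numbered 7 in place of 2 with bounds widened by 20 kb, which is 14.9% against 13.1% of all genes, where at 50 kb it was 4.26% against 7.93%. The canonical-start and shared-peak alternatives were added with the values already seen. No paired analysis was possible because the samples of an assay were merged into 1 list, so no sample could be left out either. Read depth is unknown, so an absent peak may be an undetected one, and scores at 3100 hide differences among H3K4me3 peaks. Expression, H3K27me3 and DNA methylation were not analysed here.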
